A study of Mus musculus with 24 samples.

Results

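Matrix metalloproteinases (Mmp), the ADAMTS proteases (Adamts), the ADAMTS-like proteins (Adamtsl) and the tissue inhibitors of metalloproteinases (Timp) were followed in the inguinal fat pad of young mice, white adipose tissue that lies under the skin. Genes were taken by symbol, as Mmp, Timp, Adamts or Adamtsl followed by a digit, which gave 45 of the 16118 genes measured: 17 Mmp, 4 Timp, 19 Adamts and 5 Adamtsl genes. All 45 entered the test. Poly(A) RNA of 24 mice was sequenced, 1 library per mouse, in 6 groups of 4 animals. Males and females were taken at postnatal day 21 (p21) or at day 28, and the day 28 animals had been separated from the mother at day 21 (standard weaning, SW) or were still with her (delayed weaning, DW). The p21 animals carry the label SW as well, but SW below names only the day 28 animals. The comparison of weaning times addresses what a longer stay with the mother does to this tissue. The labels name no strain, genotype or litter, so the p-values below measure the spread between these animals.

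Mmps are zinc proteases that cut collagens, gelatins, proteoglycans and other secreted or membrane proteins, and most are made as inactive precursors. Timps bind their active site and block them, and Timp3 also blocks several ADAM and ADAMTS proteases. ADAMTS proteases cut proteoglycans such as aggrecan and versican, process procollagens or act on single substrates such as von Willebrand factor, while the ADAMTS-like proteins share their carboxy-terminal modules but have no protease domain. In fat, the collagen mesh around adipocytes has to be remodelled as the cells enlarge, and Mmp14 is the pericellular collagenase best known for this.

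Libraries held 57600711 to 302145813 reads in the listed genes (median 115359238). Adipocyte markers were high in every group: the summed level of Adipoq, Plin1, Fabp4, Cidec and Lipe was 12654.5 to 22300.6 normalised reads. Some libraries that stand apart touch the results below. The library of p21 male 53 had reads in 14054 genes, against 15497 to 16066 in the others. In p21 males 53 and 54 the sum of 5 fibroblast and progenitor markers was 517.3 and 531.1, against 1217.0 and 1027.6 in p21 males 37 and 38. In DW females 82 and 83 the sum of 5 macrophage markers was 234.5 and 232.8, against 393.5 and 427.4 in DW females 76 and 77. The sum of 4 Schwann cell markers was lower there too, at 224.1 and 211.0 against 547.5 and 491.1. That of 4 endothelial markers was 942.0 and 850.2 against 1381.2 and 1441.7. Fibroblast and progenitor sums overlapped (1024.0 and 1113.6 against 962.7 and 1142.0). The macrophage markers did not vary alike: over the 4 DW females Cd68 had 2241 to 10675 reads and Adgre1 2186 to 3210. These are bulk samples, in which fewer cells of a type, less RNA per cell and a difference between libraries cannot be told apart.

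Inhibitors led the levels. Per kb of exon, Timp2 had a mean of 56.7 and Timp3 of 46.6 normalised reads over the 24 animals, and the gelatinase Mmp2 followed with 32.5, then Mmp19 with 17.7, Mmp14 with 16.6 and Adamts12 with 11.5. At the other end Mmp8, the neutrophil collagenase, stood at 0.0445 per kb and Mmp7, matrilysin, at 0.0465 per kb, with 28 reads or fewer in any library. The 17 Mmp genes together gave 119 ± 7.3 normalised reads per kb in SW females and 91.3 ± 19.5 to 100 ± 9.65 in the other groups (mean ± SD, n = 4 each). The 4 Timps gave sums of 109 ± 20.6 to 129 ± 11.9 per kb, and every pair of groups overlapped. The 19 Adamts genes gave sums of 49.2 ± 2.56 to 57.1 ± 5.24 per kb, and SW males (45.6 to 51.2) lay below DW males (53.6 to 60.2) and SW females (52.2 to 63.7).

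**Figure D1:**
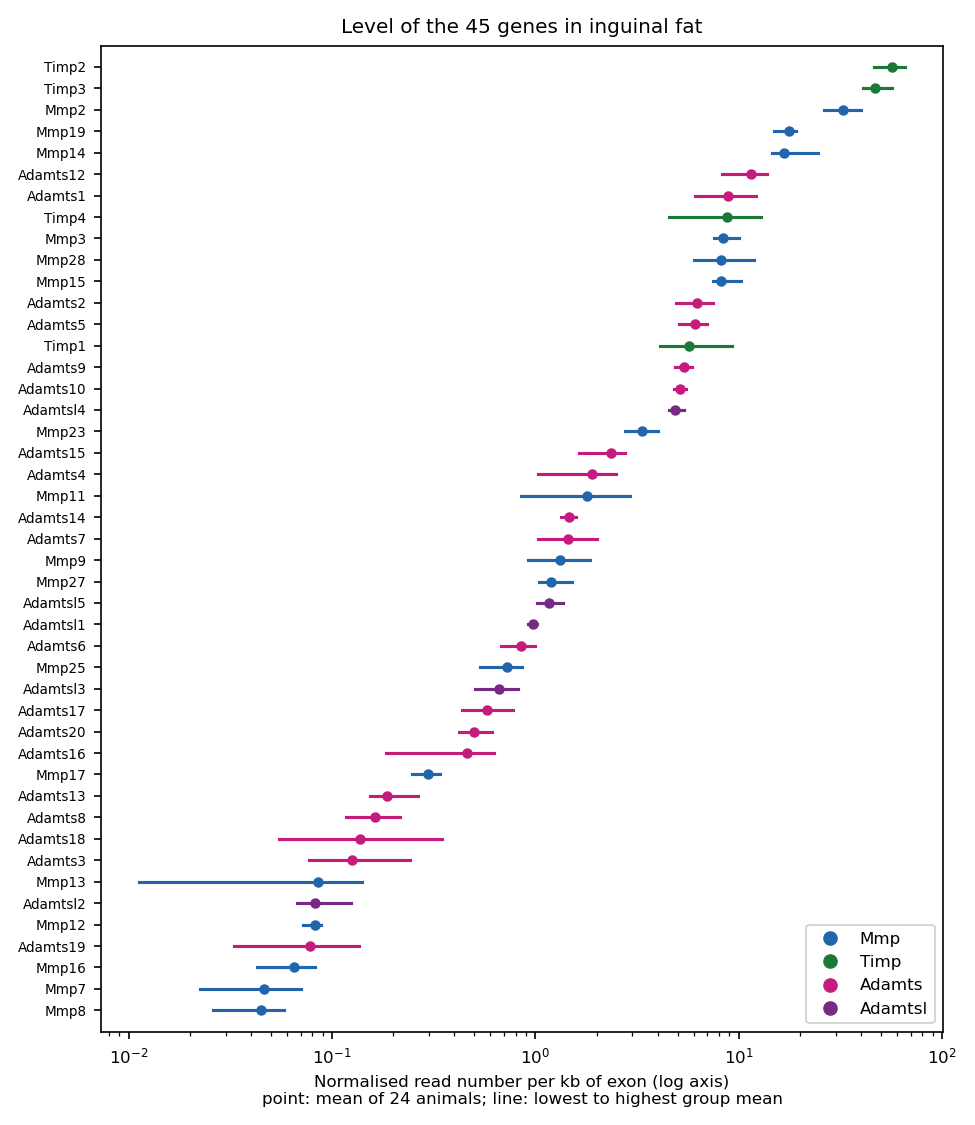
Mean level of each of the 45 genes over 24 animals, in normalised reads per kb of exon on a log axis, with a line from the lowest to the highest of the 6 group means. Timp2, Timp3 and Mmp2 lie at the top (56.7, 46.6 and 32.5), and the longest lines are those of Mmp13 and Adamts18.

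From p21 to SW day 28, 6 of the 45 genes passed the test in males and 10 in females (limma on log2(value + 1), Benjamini-Hochberg adjusted p under 0.05 over 16005 genes). The background was 11.9% of all genes in males and 11.6% in females. In males 3 rose (Mmp11, Mmp13, Adamts4) and 3 fell (Mmp28, Timp4, Adamts1), against backgrounds of 6.9% for rises and 4.97% for falls. In females 7 rose (Mmp11, Mmp13, Adamts4, Adamts18, Adamts3, Mmp14, Timp1) and 3 fell (Mmp28, Timp4, Adamtsl3), against 7.39% and 4.23%. The median change of the 45 genes was 0.07 in males and 0.10 in females on the log2 scale, beside 0.01 over all genes in each sex. The sign of the change was the same in both sexes for 32 of 45 genes (71.1%), beside 72.7% of all genes.

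Mmp11 (stromelysin-3, ENSMUSG00000000901, chromosome 10), a secreted protease activated inside the cell by furin, was the member with the largest rise in males. It was 2.29, 2.71, 1.46 and 2.96 normalised reads in the p21 males and 9.33, 8.93, 8.34 and 5.77 in the SW males. The groups were apart, and the ratio of means was 3.44 (log2 change 1.44, SE 0.197, limma adjusted p 9.95e-05). In females it was 2.30, 3.69, 2.47 and 1.84 at p21 and 6.20, 5.79, 6.04 and 8.65 after SW, again with no overlap (log2 change 1.11, SE 0.197, limma adjusted p 0.000543). DW males, at 5.45, 6.72, 6.95 and 6.33, were also above p21 males (log2 change 1.15, limma adjusted p 0.000782). DW females, at 4.47, 5.71, 2.74 and 3.04, overlapped the p21 females, and the change of 0.46 did not pass (limma adjusted p 0.126). Mmp11 shares 155 of 2778 exon bases with Chchd10 on the opposite strand, and the strand setting of the counting is not given in the sources used here. Chchd10 itself changed by 0.22 in males and 0.52 in females from p21 to SW and by -0.52 and -0.69 from p21 to DW, and passed the test in none of the 4 comparisons (limma adjusted p 0.242 to 0.751).

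Mmp13 (collagenase-3, ENSMUSG00000050578, chromosome 9), which opens the triple helix of fibrillar collagens, rose in both sexes from a level near 0. P21 males had 12, 8, 0 and 0 reads of it and p21 females 2, 10, 10 and 8. SW males had 28, 35, 74 and 17 reads and SW females 91, 34, 40 and 34. As normalised reads the group means were 0.0303 at p21 and 0.289 after SW in males, and 0.0699 and 0.377 in females. The groups were apart in both sexes, and the log2 change was 0.32 in males (SE 0.076, limma adjusted p 0.00975) and 0.36 in females (SE 0.076, limma adjusted p 0.00284), a scale that understates changes of so low a gene. DW animals were also above p21, by 0.29 in males (limma adjusted p 0.0157) and 0.33 in females (limma adjusted p 0.00635). Without p21 males 53 and 54, the libraries at 0, both male changes lost their call, at 0.28 (SW) and 0.24 (DW). The other collagenase, Mmp8, had between 0 and 28 reads in every library and passed no test.

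Among the other secreted proteases of the family, Mmp28 (epilysin, ENSMUSG00000020682, chromosome 11) fell. It was 33.2, 36.3, 48.4 and 43.4 normalised reads in p21 males and 26.1, 22.5, 26.4 and 22.7 in SW males. In females it was 54.2, 42.6, 41.7 and 46.4 at p21 and 21.1, 24.0, 27.1 and 30.1 after SW. The groups did not overlap in either sex, and p21 means were 1.65 times and 1.81 times those after SW (log2 change -0.69, limma adjusted p 0.00276 in males and -0.83, limma adjusted p 0.000286 in females). DW females, at 25.3, 28.2, 21.7 and 18.4, were lower than p21 females as well (log2 change -0.96, SE 0.138, limma adjusted p 0.00018). DW males, at 32.2, 34.3, 28.1 and 28.2, overlapped p21 males, and their change of -0.37 did not pass (limma adjusted p 0.072), though edgeR and DESeq2 called it. The male call of SW against p21 was lost without p21 males 53 and 54 (change -0.49, limma adjusted p 0.0616). Mmp28 shares 466 of 3874 exon bases with 1700020L24Rik on the opposite strand, a gene at 0.189 to 2.4 normalised reads in all libraries.

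Timp4 (ENSMUSG00000030317, chromosome 6), an inhibitor with a restricted expression that includes fat and heart, fell from p21 to SW. P21 males had 86.1, 81.2, 67.3 and 69.1 normalised reads, SW males 59.5, 45.1, 44.5 and 22.5, and DW males 61.6, 59.8, 59.2 and 56.2. P21 females had 91.2, 46.8, 68.3 and 58, SW females 20.2, 27.6, 33.3 and 25.5, and DW females 39.5, 41.8, 37.2 and 37.6. In each sex the SW animals were all below the p21 animals, and the DW group mean lay between the other two means. The log2 change from p21 to SW was -0.88 in males (SE 0.212, limma adjusted p 0.00975) and -1.26 in females (SE 0.212, limma adjusted p 0.000331). From p21 to DW it was -0.71 in females (limma adjusted p 0.032) and -0.35 in males, which did not pass (limma adjusted p 0.28). The female DW call was lost without DW females 82 and 83, with a change of -0.65 (limma adjusted p 0.146). Timp4 shares 90 of 5894 exon bases with Syn2 on the opposite strand, and Syn2 changed by -0.51 in males and -0.80 in females from p21 to SW without passing the test (limma adjusted p 0.26 and 0.0735).

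The 100 bases just before the RefSeq gene start are shown for the 4 genes that moved in both sexes and have a promoter entry, 2 that rose and 2 that fell, and for Mmp14, described below. They were read from RefSeq windows of 300 bases on GRCm38.p6, 250 before and 50 after the start, each written 5′ to 3′ on the gene's strand. Capitals mark the letters of 3 motifs searched on both strands: the AP-1 site TGANTCA, the TATA box TATAAA and the GC box GGGCGG, which reads CCGCCC on the other strand. Only matches wholly before the start are in capitals. A further GC box of Mmp28 begins 5 bases before the start, runs past it and is left in small letters.
Mmp11 (chr10:75932503-75932602, minus strand): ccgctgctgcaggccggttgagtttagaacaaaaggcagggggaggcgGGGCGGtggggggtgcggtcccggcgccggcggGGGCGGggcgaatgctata
Mmp13 (chr9:7272414-7272513, plus strand): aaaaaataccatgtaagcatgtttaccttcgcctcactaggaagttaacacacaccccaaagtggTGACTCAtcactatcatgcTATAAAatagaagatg
Mmp28 (chr11:83463041-83463140, minus strand): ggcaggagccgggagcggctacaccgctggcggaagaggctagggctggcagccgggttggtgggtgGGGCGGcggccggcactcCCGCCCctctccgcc
Timp4 (chr6:115252206-115252305, minus strand): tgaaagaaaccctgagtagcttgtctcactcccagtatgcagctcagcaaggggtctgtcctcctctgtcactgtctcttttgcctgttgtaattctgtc
Mmp14 (chr14:54431498-54431597, plus strand): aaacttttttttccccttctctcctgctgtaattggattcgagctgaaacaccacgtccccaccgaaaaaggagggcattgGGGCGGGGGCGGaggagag
Mmp13 had both an AP-1 and a TATA match, starting 35 and 16 bases before the start, and no GC box. Mmp11, Mmp28 and Mmp14 had GC boxes and neither of the other motifs, and the Timp4 window had no match to any of the 3. So the 2 genes that rose did not share a motif of these 3, and neither did the 2 that fell. Of the 45 genes 30 had a window (33 windows). The GC box was in 63.6% of those windows, beside 35.7% of 32851 windows of the same length, the TATA box in 21.2% beside 13.6%, and the AP-1 site in 12.1% beside 7.81%. The 4 genes with an AP-1 match, Mmp12, Mmp13, Mmp3 and Mmp7, also had a TATA match, and all 4 lie on chromosome 9.

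Of the remaining Mmps, the gelatinases were higher after SW than at p21 without passing the test. Mmp2, gelatinase A, was 89.0 ± 41.8 normalised reads in p21 males and 112.0 ± 18.1 in SW males, and 103.0 ± 22.9 and 134.4 ± 9.87 in females (n = 4 each). Mmp9, gelatinase B, changed by 0.76 in males (limma adjusted p 0.0546), where DESeq2 called it, and by 0.60 in females (limma adjusted p 0.142). Mmp3 and Mmp7, with Mmp11 the members of the stromelysin and matrilysin group, changed by -0.05 to 0.19 on the log2 scale against p21. Of 5 membrane-type Mmps, which act at the cell surface, 1 passed from p21 to SW: Mmp14 in females. Mmp25 missed the threshold in females (-0.52, limma adjusted p 0.0504), where edgeR and DESeq2 called it lower. Mmp15, Mmp16 and Mmp17 passed in no comparison, and Mmp15 was called from p21 to SW in females when p21 male 53, SW male 84 and p21 female 36 were left out. Of the other Mmps, Mmp12 (macrophage elastase), Mmp19, Mmp23 and Mmp27 passed in no comparison either.

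Mmp14 (ENSMUSG00000000957, chromosome 14), which activates the precursor of Mmp2, had 1 high group. It was 178.0, 156.4, 122.7 and 128.1 normalised reads in SW females. P21 females had 87.3, 93.0, 72.4 and 91.8, DW females 93.6, 118.2, 67.2 and 68.4, and the 12 males 70 to 111.8. All SW females were above all other animals. The change from p21 to SW was 0.75 in females (SE 0.177, limma adjusted p 0.00661) and 0.07 in males (limma adjusted p 0.844).

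Timp1 (ENSMUSG00000001131, chromosome X), an inhibitor that is induced in many remodelling tissues, had its highest mean in SW females, at 10.4, 7.31, 6.29 and 8.99 normalised reads. P21 females had 4.24, 3.91, 3.48 and 6.05, and SW males 5.86, 3.04, 3.32 and 3.47. The female change from p21 to SW was 0.77 (SE 0.199, limma adjusted p 0.0126), and the male change 0.07 (limma adjusted p 0.862). Timp2, which takes part in the activation of Mmp2 by Mmp14, and Timp3, which is held in the matrix, passed in no comparison: Timp2 changed by 0.51 from p21 to SW in females (limma adjusted p 0.198), and Timp3 by 0.45 from p21 to DW in males (limma adjusted p 0.0981). The 4 inhibitors therefore moved apart in SW females, with Timp1 up, Timp4 down and the abundant Timp2 and Timp3 not called.

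Among the 7 Adamts proteases that cut aggrecan and versican, Adamts4 rose and Adamts1 fell. Adamts4 (ENSMUSG00000006403, chromosome 1) was 6.37, 7.39, 1.91 and 4.09 normalised reads in p21 males, 9.40, 9.35, 9.86 and 8.62 in SW males and 11.0, 11.9, 12.2 and 12.6 in DW males. In females it was 3.84, 9.30, 5.30 and 4.61 at p21, 14.8, 11.5, 8.86 and 11.5 after SW and 7.63, 10.9, 14.6 and 11.6 after DW. The male groups at day 28 were apart from p21, while p21 female 36 overlapped both female groups at day 28. Adamts4 passed in all 4 comparisons with p21, with log2 changes of 0.90 and 1.23 for SW and DW males and 0.95 and 0.88 for SW and DW females (limma adjusted p 0.0265, 0.00373, 0.018 and 0.0294). Without p21 males 53 and 54, which had its lowest values, the 2 male calls were lost, with changes of 0.39 (SW) and 0.72 (DW). Adamts1 (ENSMUSG00000022893, chromosome 16) was 69.1, 76.3, 39.1 and 61.4 in p21 males, 30.2, 21.7, 36.8 and 46.1 in SW males and 42.4, 24.8, 28.9 and 33.1 in DW males. It fell under SW (log2 change -0.86, limma adjusted p 0.0305) and DW (-0.89, limma adjusted p 0.0217), with p21 male 53 inside the range of both day 28 groups. Its SW call was lost under 8 of 16 alternatives, the fit with only the compared groups among them, and its DW call under 4 of 16. In females its changes were -0.41 for SW and -0.70 for DW and did not pass (limma adjusted p 0.343 and 0.0753). Adamts5, Adamts8, Adamts9, Adamts15 and Adamts20 passed in no comparison.

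The procollagen N-proteinases remove the amino-terminal propeptide of fibrillar procollagens. Adamts2 (chromosome 11) was 61.2, 61.9, 26.0 and 33.6 normalised reads in p21 males and 76.2, 70.9, 64.6 and 67.5 in DW males, with no overlap (log2 change 0.69, limma adjusted p 0.0201), and this call was lost without p21 males 53 and 54 (change 0.18). Adamts3, at 0.126 normalised reads per kb over all animals, was 0.376, 0.508, 0.414 and 1.26 normalised reads in p21 females and 1.52, 0.989, 1.25 and 1.51 in SW females. P21 female 56 lay among the SW females (log2 change 0.52, limma adjusted p 0.0215), and the call was lost under 9 of 15 alternatives, edgeR, DESeq2 and the pseudocount of 0.1 among them. Adamts14 passed in no comparison.

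Of the 9 other Adamts genes, 5 passed in at least 1 comparison. Adamts7 and Adamts12, both known to cut the cartilage oligomeric matrix protein Comp, rose from p21 to DW in males. Adamts7 (ENSMUSG00000032363, chromosome 9) was 4.73, 6.01, 7.16 and 7.94 normalised reads in p21 males, 9.71, 8.34, 9.79 and 6.16 in SW males and 13.4, 13.1, 11.9 and 12.2 in DW males, and all DW males were above all other males (log2 change from p21 to DW 0.89, SE 0.178, limma adjusted p 0.00259). It shares 1.94% of its exon bases with Tbc1d2b on the opposite strand, which changed by -0.10 in that comparison (limma adjusted p 0.554). Adamts12 (chromosome 15) was 119.2, 105.9, 61.8 and 76.2 in p21 males and 143.4, 139.5, 144.5 and 170.1 in DW males, with no overlap (log2 change 0.75, limma adjusted p 0.0132), and lost its call without p21 males 53 and 54 (change 0.40). Adamts16 (chromosome 13) rose in females, from 0.568, 2.03, 1.17 and 1.26 normalised reads at p21 to 3.19, 5.18, 2.99 and 3.86 after DW, again with no overlap (log2 change 1.11, limma adjusted p 0.0217), and lost its call, but not its size, without DW females 82 and 83 (1.21, limma adjusted p 0.058). Adamts18 and Adamts19 are described with the sexes below. Adamts13, which cuts von Willebrand factor, and Adamts6, Adamts10 and Adamts17 passed in no comparison.

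Of the 5 Adamtsl genes, Adamtsl3 fell from p21 to SW in females, from 7.24, 7.05, 6.09 and 5.04 to 4.08, 4.51, 2.97 and 4.08 normalised reads. The groups were apart (log2 change -0.58, SE 0.170, limma adjusted p 0.0269). In males the change of -0.44 did not pass (limma adjusted p 0.0943), though DESeq2 called it, and the other 4 passed in no comparison.

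For DW against p21 the counts were 7 of 45 in males, 6 up and 1 down, and 6 of 45 in females, 4 up and 2 down. The background was 15% in males (8.86% up, 6.1% down) and 12.1% in females (5.95% up, 6.16% down). The genes called were Mmp11, Mmp13, Adamts2, Adamts4, Adamts7, Adamts12 and Adamts1 in males, and Mmp13, Adamts4, Adamts16, Adamts18, Mmp28 and Timp4 in females. SW and DW were compared with the same p21 animals. Without p21 males 53 and 54 the DW count in males was 3, Adamts7, Mmp11 and Adamts1, and 483 of all 16005 genes were called higher and 382 lower. Without DW females 82 and 83 the DW count in females was 4, Mmp11, Mmp13, Adamts1 and Mmp28, with 739 of all genes called higher and 653 lower. This count was 3 without p21 female 30 or without DW female 83. Over the single animals left out, all genes called ranged from 1071 to 3123.

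**Figure D2:**
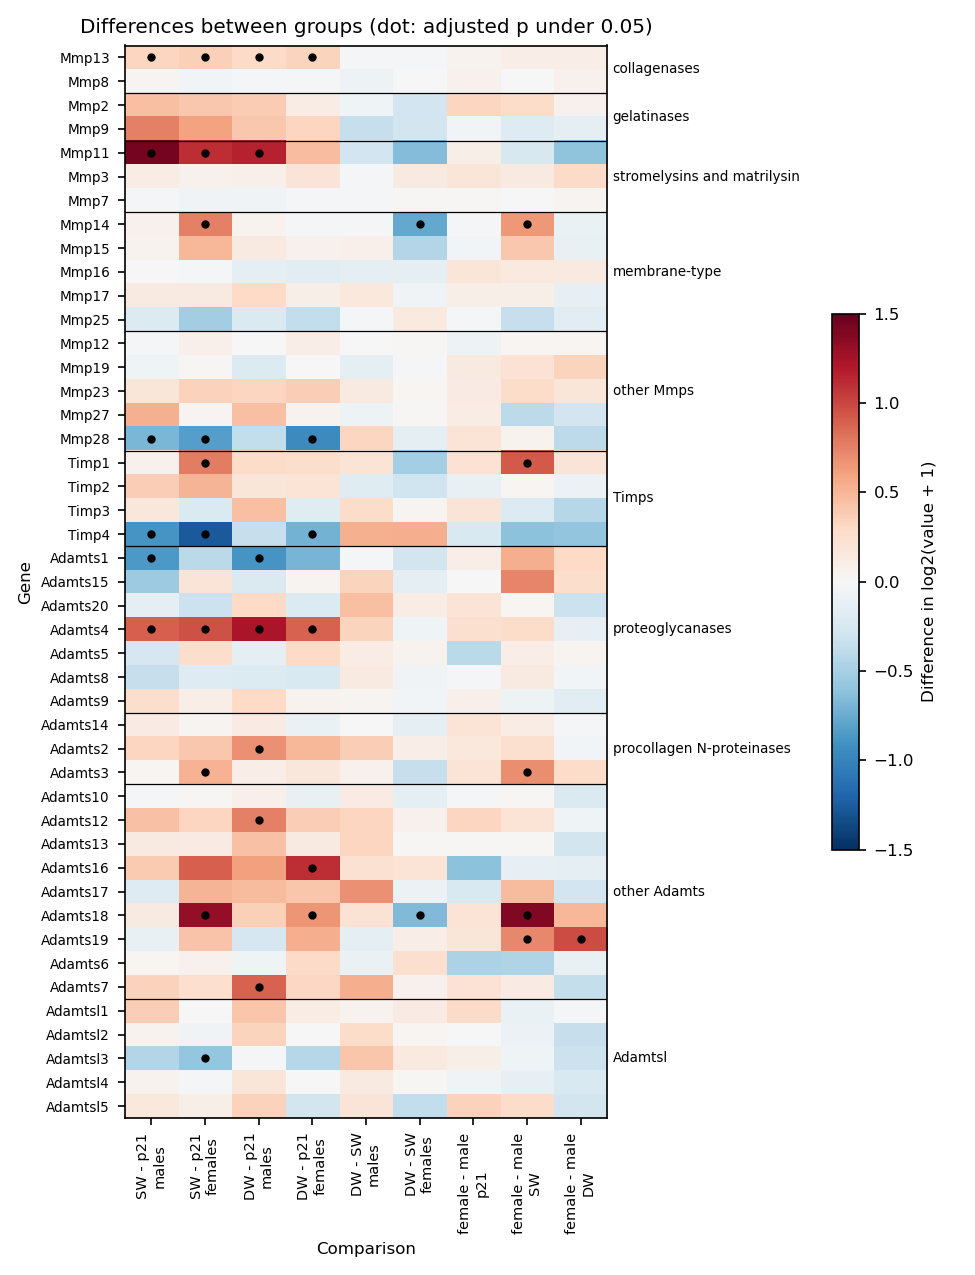
Differences in log2(value + 1) of the 45 genes, in rows grouped by role, for 9 comparisons in columns, with a dot where the limma adjusted p is under 0.05. The rises of Mmp11, Mmp13 and Adamts4 and the falls of Mmp28 and Timp4 stand in both sexes for SW against p21, and the DW against SW columns hold 2 dots, both in females.

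Marker genes of other cells moved with age as well. Of 5 macrophage markers (Adgre1, Cd68, Csf1r, Mrc1, C1qa) 3 rose in males and 4 in females from p21 to SW, and their sum was 116.9 to 210.8 in p21 males, 259.3 to 420.5 in SW males, 141.7 to 155.6 in p21 females and 334.2 to 394.5 in SW females. All 5 had reads in every library, and the part of macrophages in the changes of the proteases was not tested. All 5 skeletal muscle markers rose in males, with sums of 2.58 to 484.0 at p21 and 386.6 to 4345.5 after SW (Myh4 was at 0 in 1 p21 male). With the scores of the mammary luminal, skeletal muscle and B and T cell lists as covariates, the SW against p21 calls were Mmp11 and Mmp13 in males and Mmp13, Adamts18, Mmp28 and Timp4 in females, and the DW against p21 calls in males were Mmp11 and Adamts7. In DW against p21 females the count was 8 in place of 6, with Adamts2 and Adamts8 added, and 1041 of all 16005 genes were called higher and 1086 lower. All genes called with these covariates came to 410 and 549 for SW against p21 in males and females and to 376 for DW against p21 in males.

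**Figure D3:**
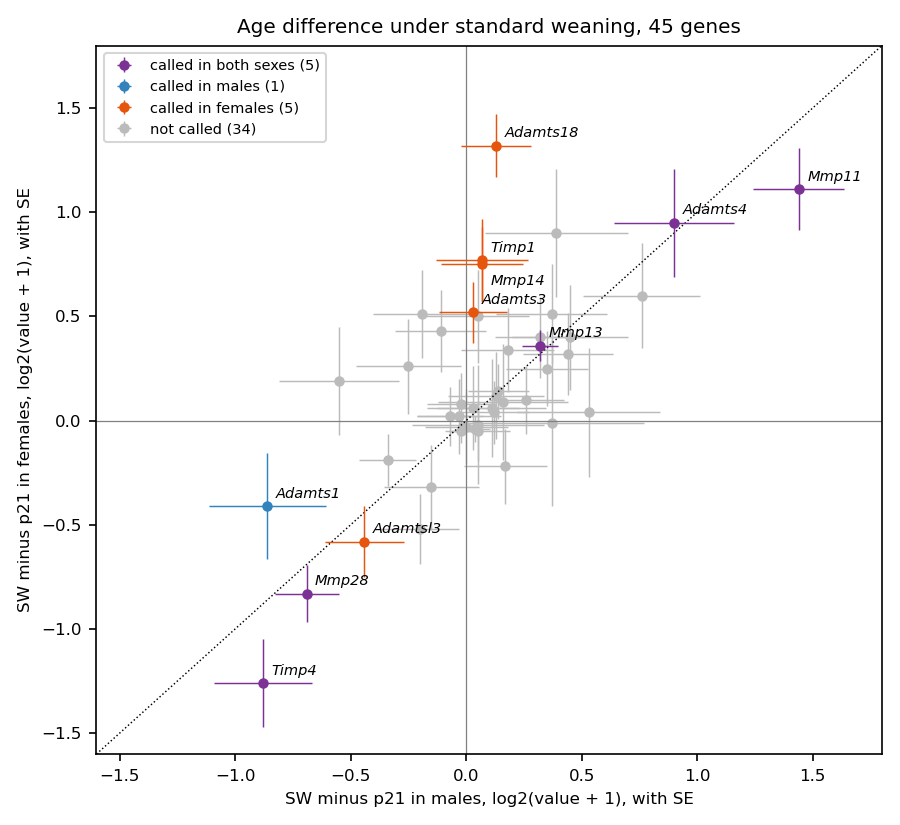
Change from p21 to SW in males (horizontal axis) and females (vertical axis) for the 45 genes, in log2(value + 1) with standard errors, coloured by the sex in which the gene was called. The 5 genes called in both sexes moved the same way in each, on either side of the dotted line of equal change, and Adamts18, Mmp14, Timp1 and Adamts3 lie near 0 for males and at 0.52 to 1.32 for females.

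Females and males were compared at each stage. At p21 none of the 45 genes differed (background 0.356%), and edgeR and DESeq2 on recovered reads also called 0. In limma 1 of the 45 had an unadjusted p under 0.05 (2.22%), beside 8.6% of all genes. After SW 5 were higher in females, Adamts18, Timp1, Adamts3, Adamts19 and Mmp14, and limma called none lower (background 3.54%, higher in females 3.36%). After DW 1 was higher, Adamts19 (background 2.46%, higher 1.89%). The edgeR test on recovered reads called Adamts18 and Timp1 higher after SW, with 396 of all genes called higher in females and 26 lower. The count after SW was 3 without SW male 84, SW male 85 or SW female 73, and the count after DW was 3 without DW female 76 or DW female 77. Over the single animals left out, all genes called ranged from 484 to 558 after SW and from 263 to 1829 after DW.

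Adamts18 (ENSMUSG00000053399, chromosome 8), a secreted protease, had the largest sex difference. It was 4.72, 2.87, 2.90 and 3.59 normalised reads in SW females and 0.717, 0.350, 0.744 and 1.08 in SW males. P21 females had 0.480, 1.18, 0.443 and 1.16, p21 males 0.615, 0.391, 0.709 and 0.515, DW females 1.57, 1.65, 1.72 and 2.40, and DW males 0.909, 1.19, 0.887 and 0.990. SW females were above all other animals, and DW females above the remaining 16. The mean of SW females was 4.87 times that of SW males (log2 difference 1.39, SE 0.153, limma adjusted p 9.24e-07) and 4.31 times that of p21 females (log2 change 1.32, SE 0.153, limma adjusted p 4.58e-06). Its change with age under SW differed between the sexes by 1.19 (SE 0.216, limma adjusted p 0.00465), and it was the 1 gene of the 45 called in that test (background 1.03%, larger rise in females 0.962%). The edgeR test did not call this difference.

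The other 4 genes that were higher in SW females than in SW males showed smaller differences. Timp1 differed by 0.92 (limma adjusted p 0.00524) and Mmp14 by 0.65 (limma adjusted p 0.0403), with the values given above. Adamts3 was 1.52, 0.989, 1.25 and 1.51 in SW females and 0.459, 0.308, 0.394 and 0.523 in SW males (log2 difference 0.70, limma adjusted p 0.00384). Adamts19 (chromosome 18) was 2.84, 1.41, 1.18 and 1.52 in SW females and 1.17, 0.546, 0.766 and 0.151 in SW males, and 1.35, 2.61, 1.79 and 1.85 in DW females and 0.649, 0.383, 0.359 and 0.459 in DW males. The groups were apart in both cases, after SW only by 1.18 against 1.17, with differences of 0.72 (limma adjusted p 0.0373) and 0.98 (limma adjusted p 0.00469). The SW call of Adamts19 was lost under 11 of 15 alternatives, edgeR, DESeq2 and the pseudocount of 0.1 among them, and the DW call under 1 of 16. The change with age of Mmp14, Timp1 and Adamts3 differed between the sexes by 0.68, 0.70 and 0.50, and these differences did not pass (limma adjusted p 0.342, 0.44 and 0.472).

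Epithelial markers were highest in the same females. The 5 mammary luminal markers (Krt8, Krt18, Krt19, Epcam, Csn3) were all higher in females than in males at each of the 3 stages, and 4 of them rose from p21 to SW in females. Their sum was 243.8 to 333.3 normalised reads in SW females, 92.6 to 205.2 in DW females, 40.2 to 149.8 in p21 females, and 0.339 to 39.4 in the 12 males, in which Krt8, Krt19 and Csn3 were at 0 in some libraries. The 5 mammary basal markers had sums of 77.1 to 108.9 in SW females, 44.1 to 49.7 in DW females and 13.7 to 34 in p21 females. In males these sums were 8.61 to 28 at p21, 26.8 to 56.3 after SW and 21.9 to 33 after DW, so SW males overlapped DW females. One basal marker, Oxtr, was called higher from p21 to SW in both sexes and had 2674 to 11415 reads in SW males. Krt5, Krt14 and Krt17 were each at 0 in 2 SW males. With the scores of the luminal, muscle and B and T cell lists as covariates, limma called none of the 45 genes between the sexes at any stage. An unadjusted p under 0.05 was seen for 2, 4 and 7 of them at p21, SW and DW, and for 244, 796 and 2189 of all genes. Over all 16005 genes the calls between the sexes fell from 57, 567 and 394 to 4, 13 and 5 at these stages. Every female had a higher luminal sum than every male, so this fit cannot tell a sex difference from one that follows the luminal score. Adamts18 was no longer called for its age by sex difference. The size of the Adamts18 differences changed little with these covariates, to 1.31 between the sexes after SW (limma adjusted p 0.359) and 1.15 for age by sex (limma adjusted p 0.0626). The other differences after SW became smaller: 0.05 for Timp1, 0.18 for Adamts3, 0.26 for Mmp14 and 0.27 for Adamts19. Because the luminal score nearly follows sex, these sizes do not show what part luminal cells have in the differences.

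**Figure D4:**
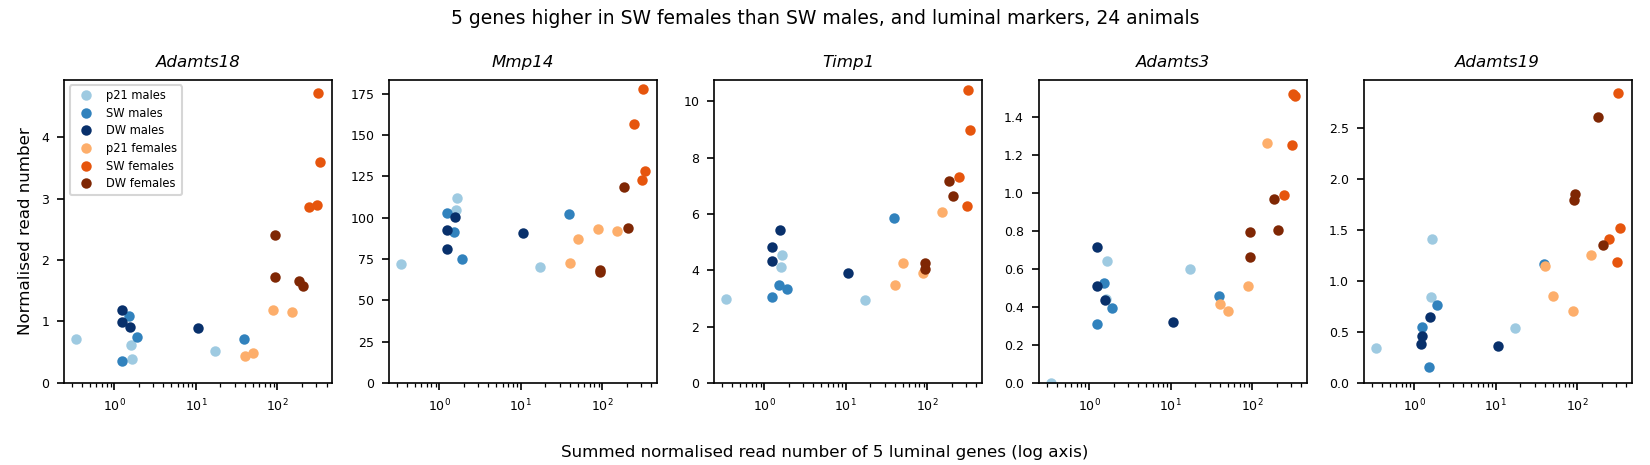
Normalised reads of Adamts18, Mmp14, Timp1, Adamts3 and Adamts19 in each of 24 animals against the summed normalised reads of 5 mammary luminal markers on a log axis, coloured by group. SW females lie to the right, at luminal sums of 243.8 to 333.3, and hold the highest value of each gene.

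DW and SW animals of day 28 were then compared. In males none of the 45 genes passed (background 0.256%), 6 had an unadjusted p under 0.05 in limma (6.94% of all genes did), and edgeR and DESeq2 also called 0. In females 2 passed, both lower in DW: Mmp14 and Adamts18 (background 1.27%, lower 0.812%). The median change of the 45 genes was 0.11 in males and -0.03 in females, beside 0.00 and -0.02 over all genes.

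Mmp14 in DW females, at 93.6, 118.2, 67.2 and 68.4, lay below all SW females (178.0, 156.4, 122.7 and 128.1), and the SW mean was 1.68 times the DW mean (log2 change -0.77, SE 0.177, limma adjusted p 0.034). Adamts18 in DW females, at 1.57 to 2.40, also lay below all SW females, at 2.87 to 4.72 (log2 change -0.66, SE 0.153, limma adjusted p 0.034). The 2 lowest DW values of Mmp14 were those of females 82 and 83. Their luminal marker sums were 92.6 and 93.7, against 205.2 and 182.5 in DW females 76 and 77. Without these 2 animals limma called no member, and 5 members and 847 of all 16005 genes had an unadjusted p under 0.05. The Mmp14 difference was then -0.46 (limma adjusted p 0.812), and that of Adamts18 -0.78 (limma adjusted p 0.211), no smaller than with all 4. On all animals, edgeR called 0 of the 45, and 5 of them and 2675 of all genes had an unadjusted p under 0.05 there. DESeq2 called Mmp14, with 201 of all genes called higher and 89 lower. Leaving out 1 animal gave 0 member calls without SW female 73, SW female 81 or DW female 82, and 1 without SW female 74 or DW female 83. Over the single animals left out, all genes called ranged from 45 to 1996. The member count was also 0 when the fit held no other groups, and when the tissue scores were covariates. All genes called were then 1 and 13. Within animal numbers 73 to 80 (2 DW, 3 SW) the difference in females was -0.51 for Mmp14 and -0.76 for Adamts18, and within 81 to 87 (2 DW, 1 SW) it was -0.91 and -0.59.

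In males the corresponding differences were -0.02 for Mmp14 and 0.22 for Adamts18. The difference between the sexes in the weaning effect was -0.75 for Mmp14 and -0.89 for Adamts18 and did not pass (limma adjusted p 0.802 and 0.328). None of the 45 genes was called in that test (background 0.0187%), and edgeR and DESeq2 called 0. An unadjusted p under 0.05 in limma was seen for 5 of them (11.1%), beside 5.09% of all genes.

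The sign of the difference between DW and SW was the same in both sexes for 25 of 45 genes (55.6%), beside 60.1% of all genes. Timp4 and Mmp11 were among the 25. Timp4 was higher in DW by 0.53 in males (SE 0.212) and 0.55 in females (SE 0.212), and neither passed (limma adjusted p 0.58 and 0.2). Mmp11 changed by -0.29 in males and -0.65 in females (limma adjusted p 0.889 and 0.115). Averaged over both sexes, a contrast added after the data were seen, Timp4 differed by 0.54 (SE 0.150, limma adjusted p 0.0578) and Mmp11 by -0.47 (SE 0.139, limma adjusted p 0.0844). No member passed there (background 2.21%), and 5 had an unadjusted p under 0.05 in limma (11.1% of members, beside 17.4% of all genes). The edgeR test called 0 members, and DESeq2 called these 2, beside 586 of all genes. Within animal numbers 73 to 80 and 81 to 87 the Timp4 difference was 0.03 and 0.36 in males and 0.60 and 0.53 in females. The Mmp11 difference was -0.55 and -0.34 in males and -0.21 and -1.31 in females. Each run held 2 DW animals per sex, beside 1 and 2 SW males and 3 and 1 SW females. SW male 124, at 22.5 for Timp4 and 5.77 for Mmp11, was in neither run. The proliferation markers were the list that rose with DW, 3 of 5 in males and 5 of 5 in females, with sums of 70.1 to 102.9 in SW males, 164.8 to 221.8 in DW males, 93 to 126.6 in SW females and 146.3 to 250.8 in DW females. All 5 had reads in every library, and their part in the differences of Mmp14, Adamts18, Timp4 and Mmp11 was not tested.

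**Figure D5:**
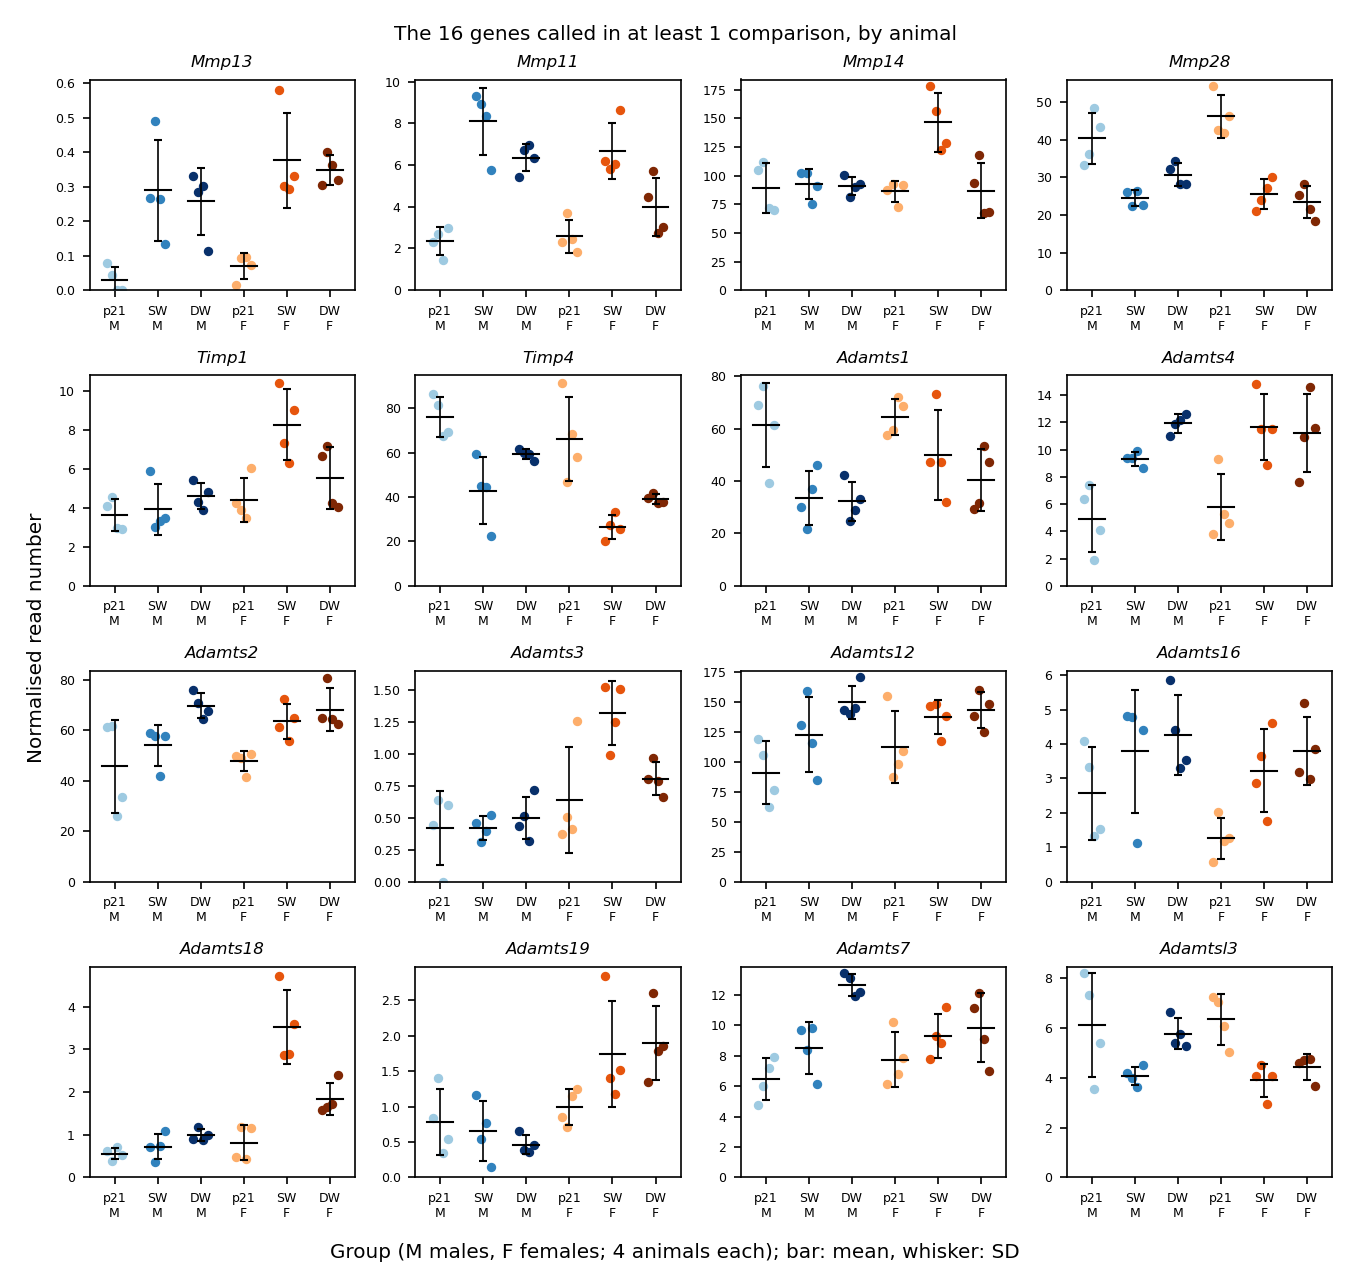
Normalised reads of the 16 genes called in at least 1 comparison, 1 point per animal in 6 groups of 4, with the mean and SD. Mmp14 and Adamts18 are highest in SW females, Timp4 and Mmp28 are highest at p21, and Mmp13 and Mmp11 are lowest at p21.

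Other genes of the same system were read from a list of 50, of which 47 were tested: plasminogen activators and their inhibitors, cathepsins, ADAM proteases, convertases and substrates. From p21 to SW 5 rose and 1 fell in males, and 8 rose and 1 fell in females. From p21 to DW 9 rose in males, and 5 rose and 1 fell in females. The shares of all genes called in these 4 comparisons were 11.9%, 11.6%, 15% and 12.1%. Cathepsin D (Ctsd), a lysosomal protease, rose in all 4 comparisons, from 401.5 ± 72.1 to 639.8 ± 10.5 normalised reads from p21 to SW in males and from 388.1 ± 42.5 to 623.0 ± 78.6 in females (n = 4 each; limma adjusted p 0.00235 and 0.00163). Cathepsin B (Ctsb) rose under SW in both sexes, by 0.51 and 0.53. In females the collagenolytic cathepsin K (Ctsk, 0.74), urokinase (Plau, 0.59) and the fibroblast protease Fap (0.60) also rose under SW.

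Substrates of the ADAMTS proteases were on the same list. Von Willebrand factor (Vwf), the substrate of Adamts13, rose in males by 0.87 under SW and 1.42 under DW (limma adjusted p 0.00724 and 0.000145). Comp, the substrate of Adamts7 and Adamts12, rose in males from 0.340 to 0.878 normalised reads under SW and to 1.27 under DW (limma adjusted p 0.0403 and 0.00285). Acan, which encodes aggrecan, was called higher from p21 to DW in males. Of the ADAM proteases, Adam10 was called higher from p21 to SW in females and from p21 to DW in both sexes. Adam19 fell from p21 to SW in males (-0.41, limma adjusted p 0.0152) and Adam12 in females (-0.59, limma adjusted p 0.0381), while Adam9 rose from p21 to DW in males (0.43, limma adjusted p 0.00851). None of the 47 genes passed in limma for DW against SW or between the sexes at any stage. At an unadjusted p under 0.05 there were 7 for DW against SW in males and 4 in females, and 2, 2 and 8 between the sexes at p21, SW and DW. The shares of all genes at that threshold were 6.94% and 18.9% for weaning and 8.6%, 9.16% and 19.7% for sex.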

How the data were processed

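Poly(A) RNA of inguinal fat was sequenced from 24 mice. Per the submitters' processing notes, fastp, HISAT2, featureCounts and DESeq2 1.38.3 were used on build mm10. The values the authors deposited are signal units: for every gene and animal, reads divided by a factor of that sample. All values (100%, tolerance 0.001 read) were whole multiples of the smallest, so reads were recovered for count tests. Log2 fold changes and adjusted p-values of the authors' own comparisons were deposited with them, per the file headers, and are used only where their table is named. Only 2.23% of deposited gene starts equalled those of GENCODE M21 (GRCm38), so no deposited coordinates are printed. Levels per kb use exon lengths of that annotation. For the p21 animals the title and the age label differ, and the age label was followed.

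After 90 repeated rows were left out, 16005 of 16118 genes passed filterByExpr (minimum count 10). The whole table was fitted with limma 3.58.1 in R 4.3.3 (lmFit, eBayes with trend) on log2(value + 1), 1 coefficient per group and 18 residual degrees of freedom. The design named edgeR for counts, and the file held scaled values, so limma was the main test and edgeR 4.0.16 and DESeq2 1.42.0 were alternatives. Scripts were tested on simulated data. Further alternatives were a pseudocount of 0.1, no filter, only the compared groups, 3 libraries left out, tissue scores or the run of animal numbers as covariates, and each animal left out.

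Members, role groups, pathway and marker lists were chosen with earlier results of these data known. Every member could be named. Values per animal are given for members called in at least 1 comparison, and pathway genes come only from the fixed list. Marker lists covered adipocytes, fibroblasts and progenitors, macrophages, neutrophils, mammary luminal and basal cells, skeletal muscle, B and T cells, endothelium, pericytes and smooth muscle, Schwann cells, mesothelium and proliferation. Those not described in the text gave 0 to 2 called genes each in any comparison.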

Additional observations from a re-analysis of the deposited data

Results flagged for a closer look

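In 10 of 96 combinations of the 16 called genes with a group, 1 animal lay far from the other 3 (its gap to the nearest, as a share of the group's range, was above Dixon's 95% critical value). About 1 in 20 would be marked by chance, which is 4.8. The combinations share animals, so they are not independent. Adamts2 did so in 3 groups: SW male 85 had 42 normalised reads against 57.6 to 58.9 in the others, p21 female 55 had 41.7 against 49.1 to 50.6, and DW female 77 had 80.8 against 62.5 to 64.8. SW male 85, the deepest library, was also low for Adamts16, at 1.12 against 4.41 to 4.81. The high animals were DW male 87 for Adamts12 (170.1 against 139.5 to 144.5), p21 female 56 for Adamts3 (1.26 against 0.376 to 0.508), SW female 81 for Mmp11 (8.65 against 5.79 to 6.20), SW female 73 for Mmp13 (0.582 against 0.293 to 0.330) and SW male 78 for Timp1 (5.86 against 3.04 to 3.47). DW female 83 was low for Adamtsl3, at 3.67 against 4.62 to 4.78. SW male 78 also had the highest mammary luminal sum of the males, 39.4, and p21 female 56 the highest of the p21 females, 149.8.

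The change of Adamts18 with age under SW was larger in females than in males by 1.19 on the log2 scale, by a test of the difference itself.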

How the results depend on the processing

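Of 38 called results of single members, 9 kept their call under every alternative run: Mmp11 from p21 to SW and to DW in males, Adamts7 from p21 to DW in males, Mmp13 and Mmp28 from p21 to SW and to DW in females, and Adamts18 and Timp4 from p21 to SW in females. The other 29 lost it under at least 1 (132 of 603 values in all), and none reversed. The cause of the changes below was not tested. Scarce genes limit the precision: 8 members had under 10 reads in at least 1 library. No paired analysis was possible because the animal numbers are not shared between groups.

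Counts that moved by over 1.5 times follow, with 2 numbers given as members and then all genes called. For DW against SW in females the limma counts were 2 and 204. They were 0 and 71 with edgeR, 0 and 63 with a pseudocount of 0.1, 0 and 1 with only the compared groups, 0 and 13 with tissue scores, 0 and 7 without DW females 82 and 83 (an alternative chosen after seeing the data), and 1 and 122 with the run of animal numbers as a covariate. DESeq2 called 1 member. For males the count of all genes was 41, and 114 with DESeq2, 98 with only the compared groups, 25 without p21 male 53, SW male 84 and p21 female 36, and 26 with tissue scores. Averaged over the sexes the counts were 0 and 353, and 2 and 586 with DESeq2, 138 genes with tissue scores, 195 genes without DW females 82 and 83, and 1 member (Mmp11) with the run covariate.

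From p21 to SW in males the counts were 6 and 1901. They were 2 and 822 with only the compared groups and 2 and 410 with tissue scores, and all genes came to 983 without the 3 libraries and 1189 without p21 males 53 and 54 (also chosen after seeing the data). In females they were 10 and 1860, and 4 and 549 with tissue scores. From p21 to DW in males they were 7 and 2395. They were 2 and 376 with tissue scores and 3 and 865 without p21 males 53 and 54, and 1399 genes without the 3 libraries. In females they were 6 and 1938, and 3 and 495 with only the compared groups.

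Between the sexes at p21 all genes came to 57, and to 15 with edgeR, 115 with DESeq2, 92 with the pseudocount of 0.1, 5 with only the compared groups, 4 without the 3 libraries, 4 with tissue scores and 31 without p21 males 53 and 54. After SW the counts were 5 and 567. Members came to 2 with edgeR, 3 with the pseudocount of 0.1 and 3 without the 3 libraries, and the counts were 0 and 13 with tissue scores. After DW they were 1 and 394, and 848 genes with DESeq2, 2 and 256 with only the compared groups and 0 and 5 with tissue scores. For the weaning by sex difference all genes came to 3, to 0 with edgeR, the pseudocount of 0.1, tissue scores and without DW females 82 and 83, and to 1 with DESeq2, only the compared groups and the run covariate. For the age by sex difference the counts were 1 and 165. They were 0 and 4 with edgeR, 0 and 38 with the pseudocount of 0.1, 0 and 50 with tissue scores, and 107 genes with DESeq2.

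Leaving out 1 animal at a time gave these ranges of members and of all genes: DW against SW 0 to 0 and 10 to 42 in males, 0 to 3 and 45 to 1996 in females, 0 to 2 and 222 to 1108 averaged over the sexes; p21 to SW 4 to 7 and 1150 to 1723 in males, 7 to 10 and 1394 to 1603 in females; p21 to DW 5 to 9 and 1236 to 2555 in males, 3 to 7 and 1071 to 3123 in females. Between the sexes the ranges were 0 to 0 and 18 to 99 at p21, 3 to 5 and 484 to 558 after SW, and 1 to 3 and 263 to 1829 after DW. For weaning by sex they were 0 to 0 and 0 to 8, and for age by sex 1 to 1 and 115 to 196.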

Other observations

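The authors' deposited table holds a column of adjusted p-values for each of the 9 comparisons between groups that were also tested here. In each, 16100 to 16108 of the 16108 values were distinct, and their median ratio to the unadjusted DESeq2 p-values computed here from recovered reads was 0.974 to 1.01. For DW against SW in males the authors' deposited table gave 6 of the 45 genes such a value under 0.05 (Adamts17, Adamts20, Adamts7, Adamtsl3, Mmp28 and Timp4), as did 7.59% of all genes. The same 6 genes had an unadjusted limma p under 0.05 here, and none passed after adjustment.

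Adamts17, a member called in no comparison, had the largest positive difference of the 45 genes between DW and SW males. It was 6.22, 6.33, 5.80 and 5.65 normalised reads in DW males and 4.76, 3.58, 3.81 and 1.89 in SW males, with no overlap (log2 difference 0.68, SE 0.211, limma adjusted p 0.312). In females it was 6.17, 5.80, 4.42 and 3.03 in DW and 6.14, 5.24, 4.66 and 4.38 in SW, and the difference between the sexes was -0.76 (limma adjusted p 0.802). Adamts7 differed between DW and SW males by 0.54 (limma adjusted p 0.368), again with no overlap.

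Mmp27 was 4.55 and 3.97 normalised reads in p21 males 37 and 38 and 0.123 and 1.54 in p21 males 53 and 54, the pair with the lower fibroblast and progenitor sums. Adamtsl1 was 20.7 and 20.0 against 1.99 and 7.27 in the same pairs, and Timp2 303.4 and 263.8 against 135.1 and 125.3. These genes passed in no comparison, and the pairs were noticed in the data.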
